A study of Homo sapiens with 34 samples.

Results

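Polycomb promoters without H3K4me3 are protein-coding genes with at least 1 start site in or near chromatin marked by H3K27me3. None of their start sites carried a peak of H3K4me3. Of 19970 protein-coding genes on chromosomes 1 to 22 and X, 2010 (10.1%) were in this state, and 943 when H3K27me3 peaks were limited to q 0.001 or less. They were chosen by measured values. Within 1 kb of any annotated start site, a gene needed an H3K27me3 region to which all 6 H3K27me3 peak lists contributed, and no peak in any of the 6 H3K4me3 lists. The cutoffs of the lists differed. The smallest −log10 q was 1.00 in the H3K27me3 lists and 3.09 in the H3K4me3 lists, so H3K4me3 between these cutoffs would not be seen. H3K27me3 and H3K4me3 values of these promoters are therefore descriptions and carry no test. The tests below concern H3K4me1, H3K4me2 and H3K27ac, which the choice did not use. These marks are not independent of those it used, as set out with the tests.

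The lists came from chromatin immunoprecipitation followed by sequencing (ChIP-seq) in KELLY, an established cell line from a human neuroblastoma. The cells carried a short hairpin RNA that doxycycline induces and that targets RUNX1T1, a transcriptional co-repressor. Cells were treated for 72 h with the solvent DMSO or with doxycycline, and each of the 5 marks had 3 libraries per treatment. Both groups carried the hairpin, and the labels name no doxycycline-treated cells without it, so effects of the drug and of the hairpin cannot be told apart. Nothing in the labels says whether the 3 libraries were separate cultures, so p-values measure the spread between libraries, which may be technical. Peaks were called at an effective depth (the smaller of ChIP and input) of 71.9 to 81.1 M reads in DMSO, against 57.0 to 63.4 M in doxycycline. The peak caller estimated fragments of 105 to 112 bp in 3 H3K27me3 libraries (replicates 2 and 3 of DMSO and replicate 3 of doxycycline) and of 256 to 280 bp in the other 3. Reads of 101 bp were treated as single-ended in the calls, per the file headers, whereas the methods of the study state paired-end runs, so an estimate near the read length may not be the length of the fragments. The label of the line was checked against 12 neuroblastoma genes, among them GATA3 and TH. Each of the 12 had H3K4me3 and H3K27ac in all 6 lists and H3K27me3 in 0 lists, and 0 of them were among the 2010 promoters.

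Polycomb group proteins keep genes silent. Polycomb repressive complex 2 writes the methyl groups of H3K27me3, and Polycomb repressive complex 1 binds this mark and compacts chromatin. CpG-rich promoters of developmental regulators often carry H3K27me3 together with H3K4me3, the mark of promoters open to transcription, and are then called bivalent. H3K4me1 marks enhancers and promoter flanks, H3K4me2 both promoters and enhancers, and H3K27ac active elements. Acetylation and trimethylation cannot sit on the same lysine 27.

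The sequence before the canonical start ranged from dense in CpG to nearly free of it. The sequences below are the 200 bases before the canonical start site of 6 named genes, the 3 with the most and the 3 with the fewest CpG dinucleotides, read 5′ to 3′ on the strand of the gene from hg38 with each CpG in capitals. WNT3A (chr1:228006798-228006997, plus strand) and WNT1 (chr12:48978122-48978321, plus strand) encode secreted WNT ligands, and FOXL3 (chr7:289970-290169, plus strand) a forkhead factor. OR2C3 (chr1:247536441-247536640, minus strand) encodes an olfactory receptor, S100A12 (chr1:153375622-153375821, minus strand) a calcium-binding protein of neutrophils, and ABCA13 (chr7:48171258-48171457, plus strand) a lipid transporter of the ABC family. DEFB118 also had 1 CpG and tied with ABCA13 for the last place, which went by alphabetical order. None of the 6 windows overlapped an annotated exon. The canonical start can differ from the start site that met the H3K27me3 region. The longest region of ABCA13 (chr7:48446761-48490426) does not hold its printed window, whereas those of the other 5 genes do.
WNT3A: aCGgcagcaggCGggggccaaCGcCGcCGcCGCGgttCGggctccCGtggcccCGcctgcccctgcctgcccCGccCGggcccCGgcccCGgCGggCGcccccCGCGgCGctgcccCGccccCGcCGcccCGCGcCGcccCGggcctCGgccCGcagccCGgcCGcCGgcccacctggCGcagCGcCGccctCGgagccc
FOXL3: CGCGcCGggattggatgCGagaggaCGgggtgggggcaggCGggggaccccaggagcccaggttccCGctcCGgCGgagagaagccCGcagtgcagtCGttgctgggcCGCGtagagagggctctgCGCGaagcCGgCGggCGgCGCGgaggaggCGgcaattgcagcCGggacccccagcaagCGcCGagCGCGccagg
WNT1: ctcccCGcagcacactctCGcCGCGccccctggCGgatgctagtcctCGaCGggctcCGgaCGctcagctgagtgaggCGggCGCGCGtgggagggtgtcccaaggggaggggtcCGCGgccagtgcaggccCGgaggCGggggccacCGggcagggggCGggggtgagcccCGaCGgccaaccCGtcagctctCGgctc
OR2C3: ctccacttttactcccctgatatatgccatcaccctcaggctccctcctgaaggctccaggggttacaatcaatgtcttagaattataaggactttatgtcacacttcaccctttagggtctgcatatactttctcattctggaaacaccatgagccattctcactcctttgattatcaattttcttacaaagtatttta
S100A12: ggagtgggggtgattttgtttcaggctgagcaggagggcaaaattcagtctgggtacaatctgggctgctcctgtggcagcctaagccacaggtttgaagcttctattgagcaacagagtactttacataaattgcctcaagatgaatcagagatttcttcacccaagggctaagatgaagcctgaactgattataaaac
ABCA13: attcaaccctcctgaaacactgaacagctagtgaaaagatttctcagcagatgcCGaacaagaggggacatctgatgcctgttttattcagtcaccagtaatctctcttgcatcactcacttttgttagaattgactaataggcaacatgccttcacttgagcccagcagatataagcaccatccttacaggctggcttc
The first 3 windows held 35, 26 and 23 CpG and the last 3 held 0, 0 and 1. The letters TATAAA were found in the window of S100A12 and in 0 of the other 5. The letters GGGCGG occurred in the windows of WNT3A, FOXL3 and WNT1 and in 0 of the windows of OR2C3, S100A12 and ABCA13.

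CpG content was low at most promoters of the set. In the 1 kb centred on the canonical start site, the median promoter of the set held 17 CpG (interquartile range 9 to 34), against 82 (59 to 104) at the 2561 bivalent promoters, which had an H3K27me3 region of all 6 lists and H3K4me3 in each of 6 lists. The median over all 19970 genes was 66. The bivalent set was called per gene over all its start sites. H3K27me3 and H3K4me3 may therefore lie at different start sites of a bivalent gene, and such genes were not counted. The ratio of observed to expected CpG had a median of 0.27 in the set, 0.77 at bivalent promoters and 0.24 at the 2306 promoters with no peak of H3K27me3 or H3K4me3 in any list. Taking a GC content over 50% with a ratio over 0.6 as CpG-rich, 280 of the 2010 promoters (13.9%) were CpG-rich, against 81.3% of bivalent promoters, 9.11% of promoters with neither mark and 64.8% of all promoters. Genes are not independent replicates, so these shares carry no test. A gene could enter the set, or the bivalent set, through a start site other than the canonical one. For some genes the measured sequence may therefore lie outside the H3K27me3 region, and their number was not counted.

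**Figure D1:**
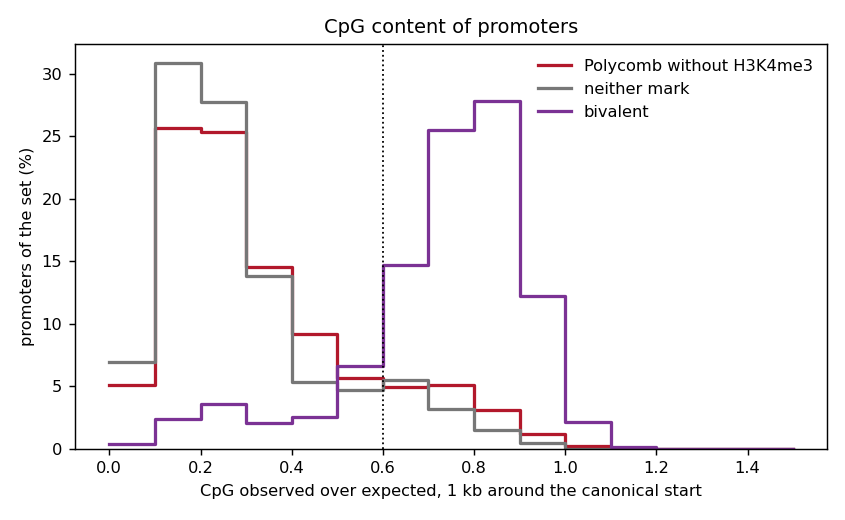
Share of promoters (%) by the ratio of observed to expected CpG in the 1 kb around the canonical start, in bins of 0.1, for Polycomb promoters without H3K4me3 (red), promoters with neither mark (grey) and bivalent promoters (purple), with the last bin open to the right. The red and grey curves peak at low ratios (medians 0.27 and 0.24) and the purple curve lies mostly to the right of the dotted line at 0.6 (median 0.77).

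Short motifs differed as well. The letters were searched on both strands of the 200 bases before the canonical start, which may lie outside the H3K27me3 region. TATAAA was found at 18.9% of the set, 17.3% of promoters with neither mark, 5.12% of bivalent promoters and 7.83% of all promoters. GGGCGG, which overlaps a CpG by its own letters, was found at 21.6% of the set, 19.3% of promoters with neither mark, 70.8% of bivalent promoters and 56.3% of all promoters. CCAAT differed less, at 31.0% of the set, 26.0% of bivalent promoters and 30.4% of all promoters. A match is a description of letters and not a bound site.

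Genes of surface epithelia, immunity and sensory reception made up most of the genes that fell in a class. Of 24 gene classes defined by gene symbol, 23 had at least 1 gene in the set, and 715 of the 2010 genes (35.6%) fell in a class, against 16.4% of all genes. The other 1295 genes were in none of the 24 classes. Membership of a class is read against the 10.1% of all genes in the state, as a count and without a test. Promoters with neither mark were 11.5% of all genes, and their counts are given for the epithelial, immune and sensory classes.

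Epithelial structure led the list. Of 149 keratins and keratin-associated proteins, which build the filaments of skin and hair, 89 (59.7%) were in the set and 2 were bivalent. Another 28 had neither mark. KRTAP10-12 and KRTAP10-3, hair keratin-associated proteins on chromosome 21, ranked highest of them by H3K27me3. The H3K27me3 fold enrichment over input at KRTAP10-12 was 5.04, 4.31 and 3.36 in DMSO replicates 1 to 3 and 4.60, 4.21 and 3.69 in doxycycline. Of 55 epidermal differentiation genes, 32 (58.2%) were in the set and 9 had neither mark. LORICRIN, a main protein of the cornified envelope, had values of 4.20, 4.33 and 3.53 in DMSO and 4.05, 3.29 and 3.54 in doxycycline, so the treatments overlapped. An H3K4me3 peak of at least 1 list lay 1.27 kb from its start site, and the gene body held such a peak. KRT5 and KRT1, keratins of basal and differentiated epidermis, had H3K27me3 in 6 of 6 lists and H3K4me1, H3K4me2 and H3K27ac in 0.

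Immune genes followed. Of 211 leukocyte surface receptors 97 (46.0%) were in the set, 11 were bivalent and 45 had neither mark. Of 212 cytokines, chemokines and their receptors 78 (36.8%) were in it, 24 were bivalent and 41 had neither mark. CD22 and SIGLEC16, sialic acid-binding lectins of leukocytes, had the highest H3K27me3 ranks of the first class. CD22 had fold enrichments of 4.53, 3.72 and 3.43 in DMSO and 4.48, 3.76 and 3.76 in doxycycline. TNFRSF18, a costimulatory receptor of T cells, and IL17REL led the second class. TNFRSF18 reached 6.64, 5.05 and 3.26 in DMSO and 6.37, 5.44 and 3.73 in doxycycline, with the lowest value of each treatment in replicate 3. Its nearest H3K4me3 peak of any list lay 1.775 kb from a start site. Defensins, antimicrobial peptides, had 21 of 46 genes (45.7%) in the set, led by DEFB123 and DEFB118, and 0 bivalent. Another 14 had neither mark.

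Sensory receptors, detoxifying enzymes and germline genes were also frequent. Of 415 olfactory receptors 139 (33.5%) were in the set, 1 was bivalent and 156 had neither mark. OR2C3 had H3K27me3 values of 3.37, 3.82 and 3.25 in DMSO and 3.45, 2.99 and 3.99 in doxycycline. Taste and vomeronasal receptors had 7 of 31 genes in the set, led by TAS2R60 and TAS2R40, and 19 with neither mark. Both classes of sensory receptors were thus more often without both marks than in the set. Cytochrome P450 and UGT enzymes, which oxidise or conjugate drugs and steroids, had 28 of 77 (36.4%), led by CYP2S1 and CYP2A7. Serpins, inhibitors of proteases, had 12 of 35 (34.3%), led by SERPINA12 and SERPINA9. Cancer-testis antigens had 34 of 107 (31.8%), led by GAGE12B and GAGE10, whose family consists of near-identical copies, so that reads cannot be placed among them with certainty. With the 3 H3K27me3 lists of long fragment estimate alone, a setting chosen after seeing the data, their number rose to 57 and that of ZNF genes from 5 to 10.

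Developmental regulators were present but were more often bivalent. Of 183 homeobox factors 39 (21.3%) were in the set and 74 were bivalent. Forkhead and SOX factors had 12 of 65 in the set and 21 bivalent, and the class of bHLH, T-box, GATA and other developmental factors had 24 of 143 and 44 bivalent. HOXA9, which patterns the body axis, had H3K27me3 values of 5.73, 4.84 and 3.41 in DMSO and 4.99, 4.40 and 3.97 in doxycycline, and H3K4me1 in 6 of 6 lists. EVX1 lay in the same 403 kb region. BHLHE23 and NR5A1, a nuclear receptor of steroid-producing tissue, led the last class. BHLHE23 had 6.64, 4.73 and 3.45 in DMSO and 6.26, 5.37 and 3.81 in doxycycline, with the nearest H3K4me3 peak of any list 1.82 kb from a start site. SOX14 and FOXL3 led the forkhead and SOX class. Among the 39 HOX genes, named here after their values were seen, 7 of 10 in the HOXB cluster and 4 of 11 in the HOXA cluster were in the set, against 0 of 9 in HOXC and 0 of 9 in HOXD. Bivalent genes numbered 1 in HOXB, 3 in HOXA, 4 in HOXC and 3 in HOXD.

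Ion channels, transporters and signalling genes were closer to the 10.1% of all genes. Potassium channels had 10 of 95 in the set and 38 bivalent, with KCNA1 and KCNA5 highest. Other voltage-gated channels had 7 of 76, led by TRPM2 and TRPC6, and neurotransmitter receptors 19 of 138, led by the somatostatin receptor SSTR5 and the serotonin receptor HTR5A. Solute carriers had 38 of 384, led by the glucose transporter SLC2A3 and by SLC25A18. WNT, TGF-beta and FGF ligands had 8 of 74 in the set and 31 bivalent. Collagens had 5 of 44, with COL20A1 and COL5A3 highest, and ABC transporters 7 of 45. ABCA10, the ABC transporter named by the study, was one of the 7, with H3K27me3 in 6 of 6 lists and H3K4me1 in 2. Cadherins outside the clusters had 3 of 47, including CDH1, the epithelial cadherin. CDH1 had H3K27me3 values of 3.44, 4.19 and 3.61 in DMSO and 3.68, 3.37 and 3.94 in doxycycline.

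At the other end, 5 of 508 ZNF zinc finger genes (0.984%, ZNF705A and ZNF683 highest), 1 of 53 clustered protocadherins and 0 of 80 ribosomal protein genes were in the set. CpG content at the canonical start divided the classes. All 12 forkhead and SOX factors and 25 of 39 homeobox factors had CpG-rich promoters, against 3 of 139 olfactory receptors, 1 of 89 keratins and keratin-associated proteins, 2 of 97 leukocyte receptors and 0 of 32 epidermal differentiation genes.

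**Figure D2:**
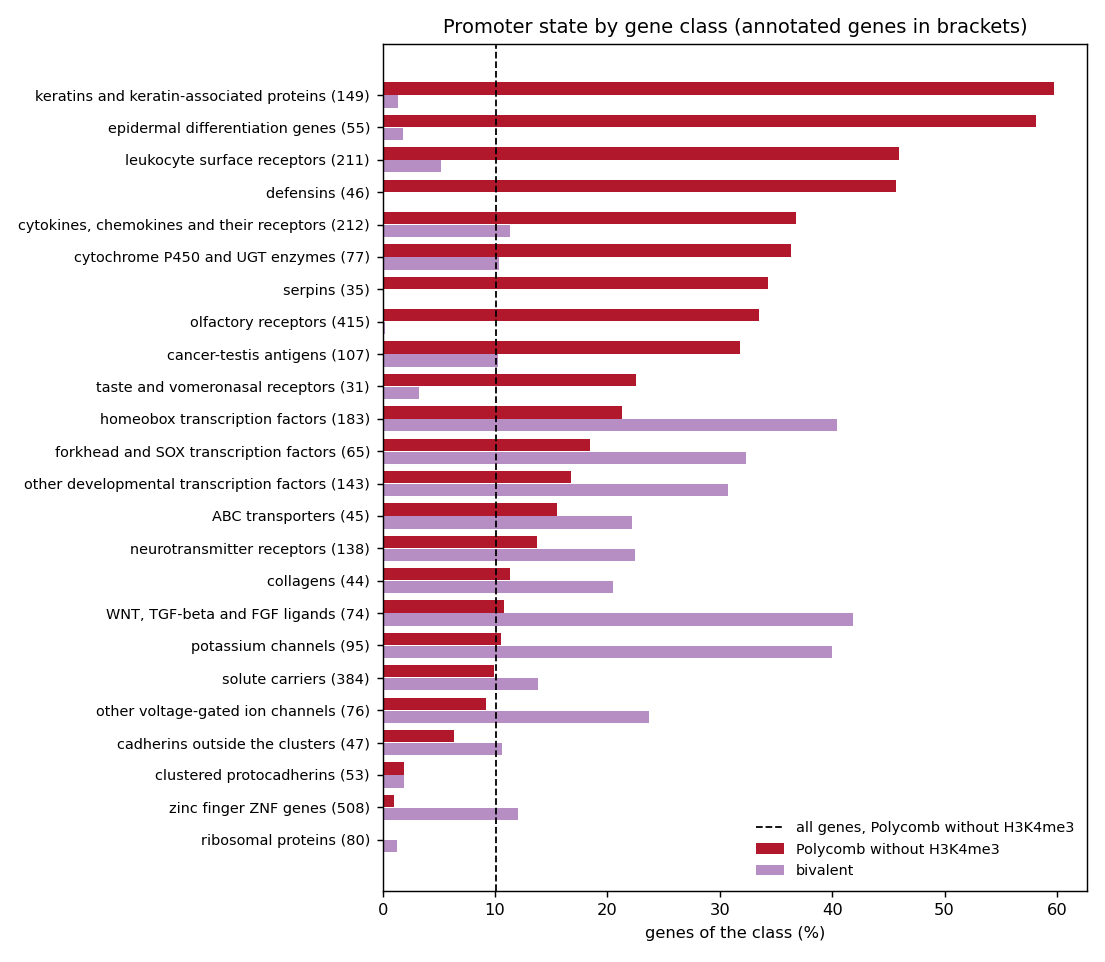
Share (%) of the annotated genes of 24 classes that were Polycomb promoters without H3K4me3 (red) or bivalent (purple), with the number of annotated genes in brackets and the 10.1% of all genes as a dashed line. Keratins (59.7%) and epidermal differentiation genes (58.2%) stand highest in red, and homeobox factors, potassium channels and signalling ligands have longer purple than red bars.

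Genes that define other tissues were found across lineages. Of 180 genes in 9 lists of 20 markers each for tissues other than neuroblastoma, 54 (30%) were in the set, 22 were bivalent and 57 had neither mark. Over all genes the shares were 10.1% in the set, 12.8% bivalent and 11.5% with neither mark. The count with neither mark was also above its share, so the excess was not particular to the set. Epidermis had 9 of 20, with KRT1, KRT5, KRT10 and KRT6A. Hepatocyte markers had 7, with ALB (serum albumin), APOH, SERPINA1 and FGA. Pancreas had 7, with PTF1A, IAPP, NKX2-2 and PRSS1, gut 7, with CDX2, MUC2, MUC5AC and TFF1, germline 7, with DDX4, SYCP1, NOBOX and TEX11, and endothelium 7, with PECAM1, FLT1, TEK and TIE1. Skeletal and cardiac muscle had 4 of 20, all myosin heavy chains (MYH1, MYH2, MYH6 and MYH8), blood 3 (CD3E, ITGAM and KLRB1) and glia 3 (OLIG1, MAG and GJA1). Some of the named genes had an H3K27me3 peak in the window in fewer than 6 lists. TEX11 and KLRB1 had it in 3, KRT10 in 4 and FGA, IAPP, TFF1 and TEK in 5. The region of TEX11 lay 973 bp from its nearest start site. The longest region of ALB was short (5.59 kb, chr4:73408278-73413868) and lay inside the gene (chr4:73397114-73421482), away from its first base. It was met through at least 1 of the 15 annotated start sites of ALB. ALB had fold enrichments of 2.53, 2.73 and 2.89 in DMSO and 2.74, 2.52 and 3.59 in doxycycline. These were below the transcription factor genes CDX2 (3.35 to 4.86) in 6 of 6 lists and PTF1A (3.35 to 4.84) in 5 of 6.

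The genes lay side by side along chromosomes. Counting consecutive protein-coding genes that were all in the set as a run, the 2010 genes formed 1057 runs. A total of 690 genes stood alone and 1320 (65.7%) had a neighbour in the set. Runs of 3 or more held 938 genes (46.7%), against 16.3% of bivalent genes and 22.6% of genes with neither mark. Runs of 10 or more held 203 genes of the set in 15 runs, 65 genes with neither mark in 5 runs and 0 bivalent genes. The next gene along the chromosome was also in the set for 47.5% of members, whereas the set was 10.1% of all genes. Many of these neighbours are copies of one ancestral gene, share 1 H3K27me3 region or have overlapping windows, so they are not independent.

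**Figure D3:**
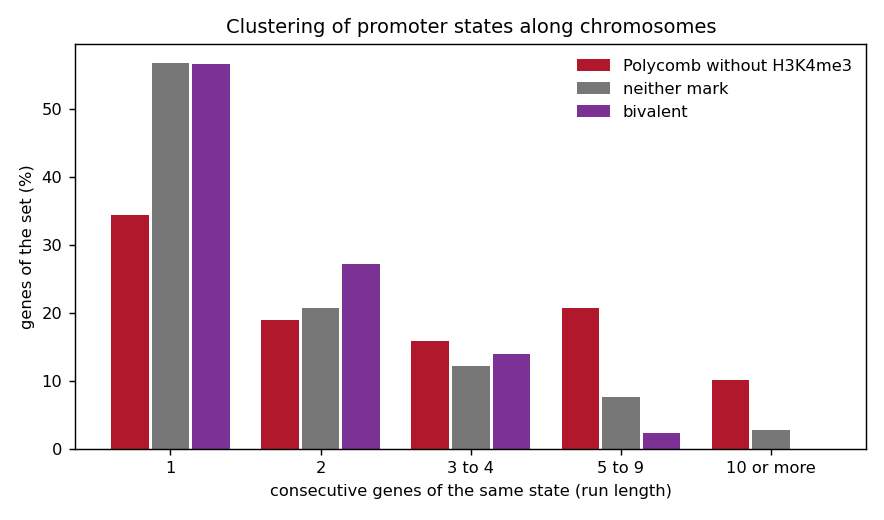
Share of genes (%) by the length of the run of consecutive genes in the same state, for Polycomb promoters without H3K4me3 (red), promoters with neither mark (grey) and bivalent promoters (purple). Runs of 5 to 9 held 20.7% and runs of 10 or more 10.1% of the red set, against 7.63% and 2.82% of the grey set and 2.30% and 0% of the purple set.

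The longest run was the type II keratin cluster on chromosome 12, with 21 genes from KRT83 to KRT78 (chr12:52314301-52849092). H3K27me3 peaks covered 49.2 to 95.5% of its 535 kb, depending on the list. The 3 libraries with a short fragment estimate gave broken cover and the 3 with a long one nearly closed cover. H3K4me1 peaks covered at most 1.58%, H3K4me2 at most 0.490% and H3K4me3 at most 0.0484%, and no H3K27ac peak lay in the run in any of the 6 lists. Each of the 21 genes had an own H3K27me3 peak of all 6 lists, 3 had H3K4me1 in at least 1 list and 1 had H3K4me2.

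**Figure D4:**
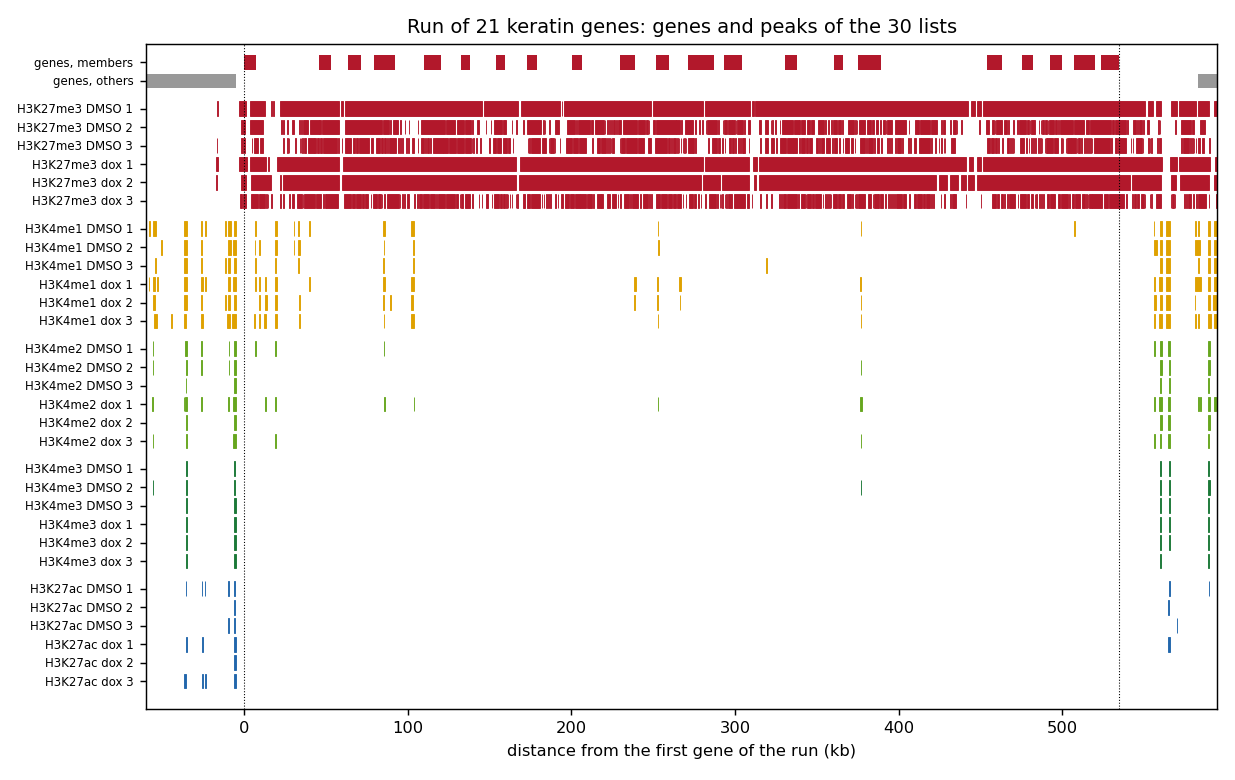
Genes and peaks of all 30 lists over the run of 21 keratin genes, as distance in kb from its first gene, with members in red and other genes in grey in the top lanes. Dotted lines mark the ends of the run. H3K27me3 (red) fills 49.2 to 95.5% of the run, H3K27ac (blue) has 0 peaks in it, and peaks of H3K4me3 (dark green, at most 1 per list in the run) and H3K27ac resume outside it.

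The second run held 20 USP17L genes on chromosome 4 (chr4:9210657-9364721, USP17L10 to USP17L30), which encode near-identical ubiquitin proteases in a tandem array. It had no H3K4me1, H3K4me2 or H3K27ac peak at any start site, but reads from such copies are hard to place and its values are uncertain. Runs of 17 genes came next, on chromosomes 12 and 21. The chromosome 12 run (chr12:9067664-10191804, A2M to TMEM52B) overlaps the natural killer gene complex of lectin receptors. The chromosome 21 run (chr21:44497893-44711572, TSPEAR to KRTAP10-12) holds hair keratin-associated proteins and was covered by 2 regions of 155 and 268 kb. Runs of 16 genes followed in the epidermal differentiation complex on chromosome 1 (SPRR2D to S100A7) and at olfactory receptors on chromosome 7 (OR2F2 to NOBOX). Outside the 24 classes, symbol roots picked after their values were seen included WFDC (10 of 12 genes in the set), PRAMEF (15 of 22), KLK kallikreins (9 of 15), PSG (9 of 10), GIMAP (7 of 7) and TAAR (6 of 6). By chromosome the share was highest on chromosome 21 (23.6%, 52 of 220 genes), 19 (16.4%) and 20 (15.9%), and lowest on chromosome 18 (4.51%, 12 of 266).

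H3K27me3 covered these genes in long regions. The 2010 genes lay on 1806 regions with a median length of 22.6 kb, against 10.2 kb for all 16369 regions of 6 lists and 12.8 kb for the 2797 regions with a bivalent promoter. Per gene, the longest region had a median of 35.0 kb (interquartile range 15.1 to 71.4), and 774 genes lay in a region of 50 kb or more. The median for bivalent genes was 14.0 kb (6.30 to 38.7). For 1100 genes (54.7%) the whole gene lay inside the region. Homeobox members had a median region of 130 kb, leukocyte receptors 47.4 kb and olfactory receptors 16.4 kb. The region with the most promoters of the set held 12, all USP17L copies, and a region on chromosome 19 held 10, with KLK5 to KLK14. Genes of the set were also short, with a median length of 11.6 kb against 42.1 kb for bivalent genes and 27.5 kb for all genes, and had a median of 2 annotated start sites against 6 and 5. A gene with fewer start sites has fewer windows in which an H3K4me3 peak could remove it from the set. It also has fewer windows in which a peak of another mark could be found.

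The edges of the choice were as follows. An own peak of all 6 H3K27me3 lists lay in the window of 1606 genes (79.9%), with a median fold enrichment of 3.28. The other 404 had an own peak of fewer lists in the window and were chosen through a merged region that all 6 lists reached, with a median of 2.71. Requiring an own peak of all 6 lists lowered the number of defensins from 21 to 3, of serpins from 12 to 7, of olfactory receptors from 139 to 88, of epidermal differentiation genes from 32 to 21 and of potassium channels from 10 to 6, and that of keratins and keratin-associated proteins from 89 to 74. Just outside, 161 genes without H3K4me3 had a region of 5 lists, with a median of 2.54. A further 53 genes had the region of 6 lists and an H3K4me3 peak in 1 list, at a median H3K4me3 fold enrichment of 3.84, against 21.9 at bivalent promoters. The region reached a start site itself in 1959 genes. It began 900 to 1000 bp away in 3 genes, and 1000 to 1100 bp away in 4 genes just outside. The nearest H3K4me3 peak of any list lay at a median of 42.3 kb from the start sites, and 83 genes had one within 2.5 kb.

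The share of the set with an own H3K27me3 peak was 98.3, 87.7 and 89.3% in DMSO replicates 1 to 3 and 99.6, 98.2 and 89.5% in doxycycline. The 3 lowest shares came from the 3 libraries with a short fragment estimate. The median fold enrichment at these peaks was 3.23, 3.20 and 3.01 in DMSO and 3.22, 2.99 and 3.44 in doxycycline. At bivalent promoters the medians were 3.46, 3.50 and 3.08 in DMSO and 3.43, 3.17 and 3.47 in doxycycline.

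Other marks were sparse at these promoters. No peak of H3K4me1, H3K4me2 or H3K27ac was found in any list at 1310 of the 2010 genes (65.2%), against 48.5% of promoters with neither mark, 15.0% of all promoters and 0 bivalent promoters. Each of the 3 marks was less frequent in the set than in both other sets in 6 of 6 libraries, by an exact two-sided sign-flip test over the 6 libraries, with Benjamini-Hochberg adjustment over 6 comparisons. The 6 libraries are not fully independent, since the input read totals of replicates 1 and 3 were the same in each treatment. The smallest p this test allows is 0.0312, and all 6 comparisons gave it, with an adjusted p of 0.0312. The bivalent set was defined by H3K4me3, whose peaks lie among those of the other H3K4 marks. A difference from that set in H3K4me1 and H3K4me2 is therefore not independent of the choice. The H3K27ac comparisons are not independent of the choice either. Against promoters with neither mark, the set was chosen to carry H3K27me3, which cannot share a lysine with acetylation. Against bivalent promoters, the set was chosen to lack H3K4me3, the mark of promoters open to transcription. How much of the H3K27ac differences follows from the choice was not tested. Their p-values describe only how steady the differences were over libraries.

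H3K27ac was nearly absent. It was present at 1.39, 1.04 and 1.24% of the set in DMSO replicates 1 to 3 and at 1.24, 0.846 and 0.896% in doxycycline. The mean was 1.11% ± 0.217 (SD, n = 6), against 53.0% ± 3.07 at bivalent promoters and 19.8% ± 3.91 at promoters with neither mark. The differences were -51.9 and -18.7 percentage points, and the libraries of the sets did not overlap. Their size changed with the settings. The canonical start alone gave -36.8 against bivalent promoters, and peaks of q 0.001 or less gave -10.5 against neither mark. Windows of 2.5 kb gave -59.8 and -22.5. Where H3K27ac was present in the window, its peaks touched an H3K27me3 peak of the same treatment and replicate number in 0 to 7.14% of cases. Of 48 genes with H3K27ac in any list, 34 had it at another start site than the one in the H3K27me3 region, and 14 at the same.

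H3K4me1 was more frequent. It was present at 21.7, 15.7 and 15.2% of the set in DMSO and at 24.2, 16.7 and 15.7% in doxycycline, with replicate 1 highest in each treatment. The mean of 18.2% ± 3.80 (SD, n = 6) lay 16.3 percentage points below promoters with neither mark (34.5% ± 4.71) and 78.6 below bivalent promoters (96.8% ± 1.61). Of the peaks concerned, 58.1 to 84.7% touched an H3K27me3 peak of the same treatment and number, and 598 of 654 genes with H3K4me1 in any list had it at the same start site as the region. H3K4me1 was found in at least 1 list at 57.5% of the 280 CpG-rich promoters and at 28.5% of the other 1730. It was present in all 6 lists at 128 genes and in 0 lists at 1356, and the share with all 6 lists was 7.5% of the CpG-rich promoters and 6.18% of the others. HOXA9, NR5A1, WNT1, IL17REL, COL20A1, CDHR5, FLT1, MAG and APOH, of the genes named for their class or tissue, were among the 128, and 0 of the 139 olfactory receptors and 0 of the 89 keratins and keratin-associated proteins were. HOXA9, NR5A1, WNT1, IL17REL and COL20A1 had an H3K4me3 peak of at least 1 list just outside the window, 1.32 to 2.25 kb from a start site. For CDHR5, FLT1, MAG and APOH the nearest lay 4.82 to 163 kb away. Over the whole set, 83 genes had one within 2.5 kb.

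H3K4me2 varied most between libraries. It was present at 11.4, 3.08 and 1.19% of the set in DMSO and at 21.9, 3.18 and 5.67% in doxycycline. Replicate 1 was highest in each treatment by a wide margin. The smallest −log10 q was 3.19 in the H3K4me2 lists, against 1.00 in those of H3K4me1 and H3K27ac. Shares of H3K4me2 are therefore not comparable with those of the other marks. The mean was 7.75% ± 7.81 (SD, n = 6), against 12.6% ± 6.51 at promoters with neither mark and 99.1% ± 0.763 at bivalent promoters. The difference from promoters with neither mark was -4.84 percentage points and shrank to -0.176 in the library closest to 0. With windows of 500 bp, or the canonical start sites alone, it did not reach the threshold, with a p of 0.0625 by the same exact test.

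**Figure D5:**
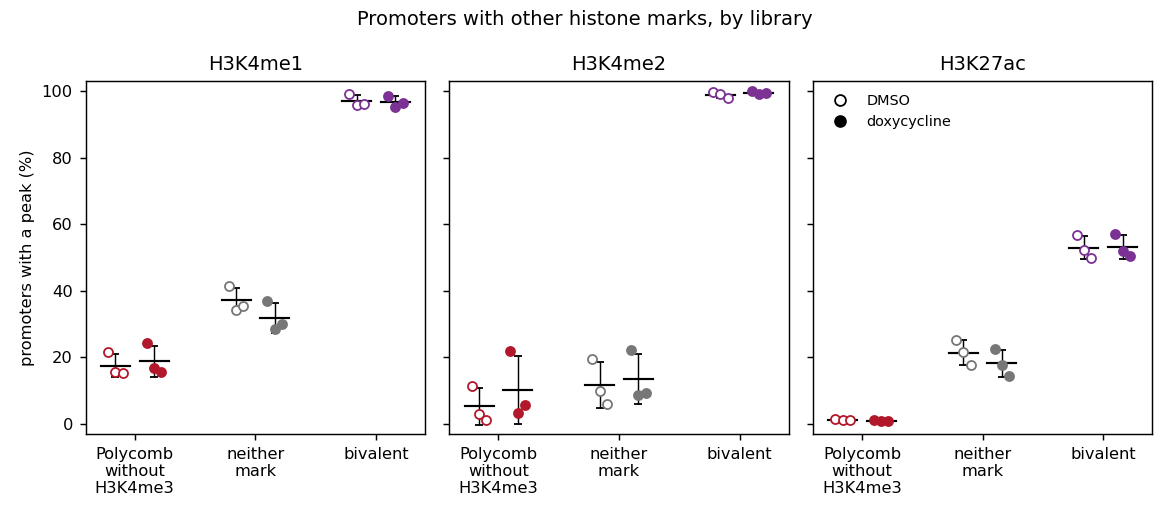
Share of promoters (%) with a peak of H3K4me1, H3K4me2 or H3K27ac for Polycomb promoters without H3K4me3, promoters with neither mark and bivalent promoters. Each point is 1 library (open, DMSO; filled, doxycycline), lines are means and bars SD (n = 3). The Polycomb set lies lowest in each panel, at means of 18.2% for H3K4me1, 7.75% for H3K4me2 and 1.11% for H3K27ac over the 6 libraries.

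Doxycycline and DMSO did not differ beyond the spread between libraries in these shares. For H3K4me1 the mean was 17.5% ± 3.60 (SD, n = 3) in DMSO and 18.9% ± 4.67 in doxycycline, a difference of 1.33 percentage points (exact two-sided permutation over 20 assignments, p = 0.6, adjusted over 3 marks 0.6). For H3K4me2 the difference was 5.02 points (5.24% ± 5.45 against 10.3% ± 10.2, exact permutation p = 0.5, adjusted 0.6). For H3K27ac it was -0.232 points (1.23% ± 0.175 against 0.995% ± 0.217, exact permutation p = 0.3, adjusted 0.6). With 3 libraries against 3, the smallest p possible is 0.1. Between libraries of the same number, doxycycline minus DMSO was 2.54, 0.995 and 0.448 points for H3K4me1, 10.5, 0.0995 and 4.48 for H3K4me2 and -0.149, -0.199 and -0.348 for H3K27ac, so each mark kept 1 direction over the 3 numbers. Without doxycycline replicate 1 alone, which leaves the high DMSO replicate 1 in place, the H3K4me1 and H3K4me2 differences were -1.35 and -0.813 points. Calling depth differed between the treatments. With the 6 lists of a mark shortened to equal length, the differences were 4.21 points for H3K4me1 (exact permutation p = 0.2), 3.90 for H3K4me2 (p = 0.2) and 0 for H3K27ac (p = 1).

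Few of the promoters separated the treatments, with a peak in 3 of 3 libraries of one and 0 of 3 of the other. H3K4me1 was gained in doxycycline at 9 genes of the set (0.448%), against 0.125% of all genes, and lost at 1 (0.0498%), against 0.19% of all genes. H3K4me2 was gained at 1 gene, against 0.03% of all genes, and lost at 0, as at all genes (0%). H3K27ac was gained at 0 genes of the set, against 0.11% of all genes, and lost at 3 (0.149%), against 0.22% of all genes. These counts have no test and moved with the settings. The 9 gains of H3K4me1 became 1 when peaks of q 0.001 or less were used, and 21 with lists of equal length.

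The gains of H3K4me1 were led by KLK7, AQP12B and PABPN1L. KLK7 is a kallikrein protease of the skin (chr19:50976468-50984099), and its H3K4me1 peak had a fold enrichment of 2.81, 3.13 and 2.65 in the 3 doxycycline libraries. AQP12B, an aquaporin with a close copy beside it, had 2.81, 2.80 and 2.46. PABPN1L, related to a nuclear poly(A)-binding protein, had 3.04, 2.71 and 2.15, within an H3K27me3 region of 144 kb. CELA3B, a pancreatic protease with the close copy CELA3A, lost H3K4me1, at 2.14, 2.47 and 2.16 in the 3 DMSO libraries. Each of the 4 kept H3K27me3 in 6 of 6 lists. For scale, the median H3K4me1 peak of a whole list had a fold enrichment of 2.27 to 2.72.

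SPAAR, which encodes a small polypeptide that restrains amino acid signalling, was the gene with gained H3K4me2, at 11.3, 5.43 and 4.54 in doxycycline. It also had H3K4me1 in 6 lists and H3K27ac in 4. The genes that lost H3K27ac were GRAP2, an adaptor of T-cell receptor signalling (2.63, 2.36 and 2.53 in DMSO), UMODL1 (2.97, 2.29 and 2.19) and SULT2B1, a sterol sulfotransferase (2.00, 2.31 and 1.92). All 3 had an H3K4me3 peak not far outside the window, at 1.04 kb for GRAP2, 2.89 kb for UMODL1 and 1.58 kb for SULT2B1.

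H3K27ac was present in all 6 lists at 10 genes of the set. By rank within the lists, the highest were MYO3B, an unconventional myosin of sensory cells, ALLC, related to allantoicase, SUN3, a nuclear envelope protein of germ cells, C10orf90 and CYTH4, a guanine nucleotide exchange factor. H3K27ac fold enrichment at MYO3B was 6.06, 4.75 and 4.15 in DMSO and 5.02, 4.42 and 4.29 in doxycycline, beside H3K27me3 values of 2.92, 2.90 and 2.86 and of 3.13, 3.06 and 3.31. Each value is the highest over all start sites of the gene (6 for MYO3B, 3 for ALLC and 8 for SUN3). The marks need not lie at the same start site. ALLC had H3K27ac at 5.30, 5.60 and 3.54 in DMSO and 3.86, 3.74 and 3.15 in doxycycline. SUN3 had 4.29, 3.37 and 3.01 in DMSO and 4.64, 3.83 and 3.35 in doxycycline. Treatments overlapped at MYO3B, ALLC and SUN3. All 10 genes also had H3K4me1 in 6 of 6 lists.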

How the data were processed

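The material was 30 ChIP-seq peak lists from KELLY cells, 3 for each of 5 marks in each treatment. The 4 inputs entered through the peak calls, and replicates 1 and 3 of a treatment had the same input read total in the headers. Per the study's methods and labels, reads were aligned with Bowtie2 to hg38 and filtered on mapping quality. Per the file headers, the authors called peaks in each library with MACS 2.1.1.20160309 against an input, in broad mode for H3K4me1, H3K27ac and H3K27me3 and in narrow mode for H3K4me2 and H3K4me3. The deposited fold enrichment (a ratio of ChIP to local input) and the deposited −log10 q-value depend on depth and input, so they were used to describe and rank peaks within a list. Fewer reads can give fewer weak peaks.

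Windows were 1 kb either side of every GENCODE release 44 start site. H3K27me3 peaks of the 6 lists were merged where they shared a base (124320 regions, 16369 with all 6 lists, the same with bedtools 2.31.1). The functions were tested on simulated data. Python 3.11.15, numpy 2.4.6 and pandas 2.3.3 were used. The members, gene lists, naming rules and tests were chosen with earlier results of these data known. Named genes were the 2 of each class ranking highest by H3K27me3 −log10 q (percentile within a list, averaged over 6 lists), those of the longest runs, up to 4 per tissue list, the 3 separating genes per mark and direction and the 5 with H3K27ac in 6 lists that ranked highest. Printed promoters came from the first of these groups, leaving out 15 of 44 windows that overlapped an annotated exon. A marker of the neuroblastoma list is not reported here.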

Additional observations from a re-analysis of the deposited data

How the results depend on the processing

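The number of promoters in the set stayed between 1611 and 2351 with windows of 500 bp or 2.5 kb, the canonical start alone, weak H3K4me3 peaks ignored, an own H3K27me3 peak of each list and, a setting chosen after seeing the data, only the 3 H3K27me3 lists with a long fragment estimate. It fell to 943 with H3K27me3 peaks of q 0.001 or less. Leaving out a treatment-by-number set gave 1966 to 2116.

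Of doxycycline minus DMSO shares, leaving out a library gave -1.35 to 3.40 points for H3K4me1, -0.813 to 8.57 for H3K4me2 and -0.357 to -0.149 for H3K27ac, and the negative values of the first 2 came without doxycycline replicate 1. With the replicate number as a replicate block the differences were the same 1.33, 5.02 and -0.232, with an exact p of 0.25, the smallest it allows. The numbers do not pair the libraries by the labels, and over all genes the departures of 2 libraries with the same number from the mean of their groups correlated at 0.0643 to 0.470, against -0.475 to 0.327 for libraries of different number.

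Against bivalent promoters, leaving out a library gave -79.5 to -78.2 points for H3K4me1, -94.1 to -90.4 for H3K4me2 and -52.6 to -51.2 for H3K27ac. Against promoters with neither mark it gave -17.1 to -15.5, -5.77 to -4.22 and -19.7 to -17.7. With 5 libraries the smallest p is 0.0625, which is why the threshold was missed there. For H3K4me2 against neither mark, a 500 bp window gave -3.39 and the canonical start -3.60, also missing it, and the cause was not tested. For H3K27ac, the canonical start alone gave -36.8 points against bivalent promoters and -16.1 against neither mark. Peaks of q 0.001 or less gave -47.6 and -10.5, and windows of 2.5 kb gave -59.8 and -22.5.

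Counts of separating genes were unstable. H3K4me1 gains were 1 with q 0.001 or less, 21 with lists of equal length and 10 to 25 without a library. H3K4me1 losses were 4 with 500 bp, 4 with 2.5 kb, 0 with q 0.001 or less, 3 with equal lists and 2 to 15 without a library. H3K4me2 gains were 0 with 2.5 kb, 9 with equal lists and 1 to 20 without a library, and losses 0 to 1. H3K27ac gains were 1 with 500 bp, 1 with 2.5 kb and 0 to 1 without a library. H3K27ac losses were 1 with 500 bp, 6 with 2.5 kb, 1 with q 0.001 or less and 3 to 5 without a library. Causes were not tested.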
